A study of Mus musculus with 4 samples.

Results

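Pomc, Cartpt, Pcsk1, Tbx3 and Isl1, 5 genes by which POMC neurons of the arcuate nucleus are known, were followed by every probe whose symbol in the platform annotation is one of these names. They are 5 of 16593 gene symbols and 8 of 25697 probes on the array: 1 each for Pomc, Pcsk1 and Isl1, 2 for Cartpt and 3 for Tbx3. All 8 entered the fit over 12266 probes, and 7 of them were detected above background on all 4 arrays. The arrays were Illumina MouseRef-8 v2 expression beadchips and recorded messenger RNA bound to ribosomes that carried a hemagglutinin tag (RiboTag), precipitated from punches of the mediobasal hypothalamus. In the lineage group (Pomc-Cre:RiboTag, n = 2 arrays), Cre under the Pomc promoter switched on the tagged ribosomal protein through a cross, so that descendants of any cell that once expressed Pomc keep the tag. In the virus-injected group (Pomc-cre AAV-DIO-RiboTag, n = 2 arrays), Pomc-Cre mice received a viral vector in which the tag depends on Cre, and the labels describe the cells as adult POMC neurons. Every mouse carried Pomc-Cre; the labels name no strain, age or sex, and do not say whether an array was 1 animal or a pool, so p-values measure the spread between these arrays, which may be technical. All 4 arrays shared 1 beadchip, where the virus-injected arrays held B and D while F and H held lineage RNA, so position and group cannot be told apart.

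POMC neurons restrain feeding by releasing melanocortin peptides, which are cut from the precursor that Pomc encodes. The prohormone convertase encoded by Pcsk1 makes the early cuts, and Cartpt encodes CART, a further appetite-suppressing peptide that many of these neurons release beside the melanocortins. Isl1, a LIM-homeodomain factor, and Tbx3, a T-box factor, act upstream: in mice Isl1 binds the distal neuronal enhancers of Pomc and is needed for its expression, and Tbx3 is needed for the identity of POMC neurons. Cartpt is also made by other hypothalamic neurons, Isl1 and Tbx3 by other arcuate neurons, and Pcsk1 by many peptide-secreting cells, so Pomc is the most selective of the group.

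The promoters of the 3 secretory genes are shown because Pomc and Pcsk1 were brighter on both lineage arrays and Cartpt was not. Each window runs from 250 bases before to 50 bases after a RefSeq start site on GRCm38.p6. Such windows were at hand for 4 of the 5 genes, the exception being Tbx3. The Pcsk1 and Cartpt windows lie inside the gene ranges given below, so both genes extend upstream of the start used. Capitals mark the core of the cyclic AMP response element, TGACG on either strand (its full palindrome TGACGTCA holds that core on both strands), the homeodomain core TAATTA, the T-box element AGGTGT on either strand, and TATAAA on the gene's strand.
Pomc, chr12:3954695-3954994, plus strand: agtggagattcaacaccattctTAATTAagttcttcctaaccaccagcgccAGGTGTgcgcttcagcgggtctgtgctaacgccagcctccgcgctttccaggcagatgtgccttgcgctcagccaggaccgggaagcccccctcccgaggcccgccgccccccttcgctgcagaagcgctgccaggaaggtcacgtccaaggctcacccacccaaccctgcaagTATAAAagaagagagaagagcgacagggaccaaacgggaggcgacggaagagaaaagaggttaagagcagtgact
Pcsk1, chr13:75089607-75089906, plus strand: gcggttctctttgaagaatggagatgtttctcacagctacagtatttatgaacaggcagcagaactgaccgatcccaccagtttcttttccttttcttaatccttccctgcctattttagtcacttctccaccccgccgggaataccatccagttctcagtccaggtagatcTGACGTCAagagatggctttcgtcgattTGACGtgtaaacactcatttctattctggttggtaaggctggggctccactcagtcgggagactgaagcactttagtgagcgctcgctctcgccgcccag
Cartpt, chr13:99900634-99900933, minus strand: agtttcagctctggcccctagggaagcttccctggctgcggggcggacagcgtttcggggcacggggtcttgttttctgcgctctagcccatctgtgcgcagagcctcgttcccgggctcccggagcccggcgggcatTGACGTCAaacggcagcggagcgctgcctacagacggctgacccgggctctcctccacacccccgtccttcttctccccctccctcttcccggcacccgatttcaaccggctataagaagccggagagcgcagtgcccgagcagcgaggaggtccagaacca
The Pomc window held TAATTA at -228, AGGTGT at -199 and TATAAA at -25, counted from the start site. The Pcsk1 window held TGACGTCA at -78 and a further TGACG at -50, and the Cartpt window held TGACGTCA at -112. The Isl1 window, on the minus strand of chromosome 13, held TGACG at -59 and its complement at -41. Of the 32851 windows in the RefSeq table, 20.8% held TGACG, 1.79% TGACGTCA, 5.29% TAATTA, 13.7% AGGTGT and 8.32% TATAAA. These letters describe the windows, and no binding was measured.

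On the normalized log2 scale, Pomc and Pcsk1 were brighter on both lineage arrays than on either virus-injected array, and the groups overlapped for Cartpt and Isl1. The 3 Tbx3 probes had higher means in the lineage group by unequal amounts. No probe passed an adjusted p of 0.05 (limma, Benjamini-Hochberg over 12266 probes): 0 of the 8 member probes and 0 of all probes, or 0.0%. Before adjustment 1275 probes (10.4%) had a p under 0.05, with the higher mean in the lineage group for 594 (4.84%) and the lower for 681 (5.55%). Of the 8 member probes 3 were among the 594 (Pomc, Pcsk1 and the third Tbx3 probe) and 0 among the 681. The third Tbx3 probe was detected on the lineage arrays only and entered the fit through them, so its p-value and its place in these counts are no support for a difference. Both lineage arrays lay above both virus-injected arrays for 4 of the 8 probes, against 21.9% of all tested probes. For 0 of the 8 did both lie below, against 21.4% of all, and for 4 the groups overlapped. These counts are of normalized values. In deposited intensity both lineage arrays lay below on both Cartpt probes, as given under that gene. Of the 4 above, the second Tbx3 probe was separated by only 0.409 bead standard errors of intensity at its closest. The median log2 difference was 0.45 over the 8 probes, 0.28 without the third Tbx3 probe and 0.003 over all tested probes. The probes of 1 gene share a target, so 8 probes are not 8 independent measurements.

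**Figure D1:**
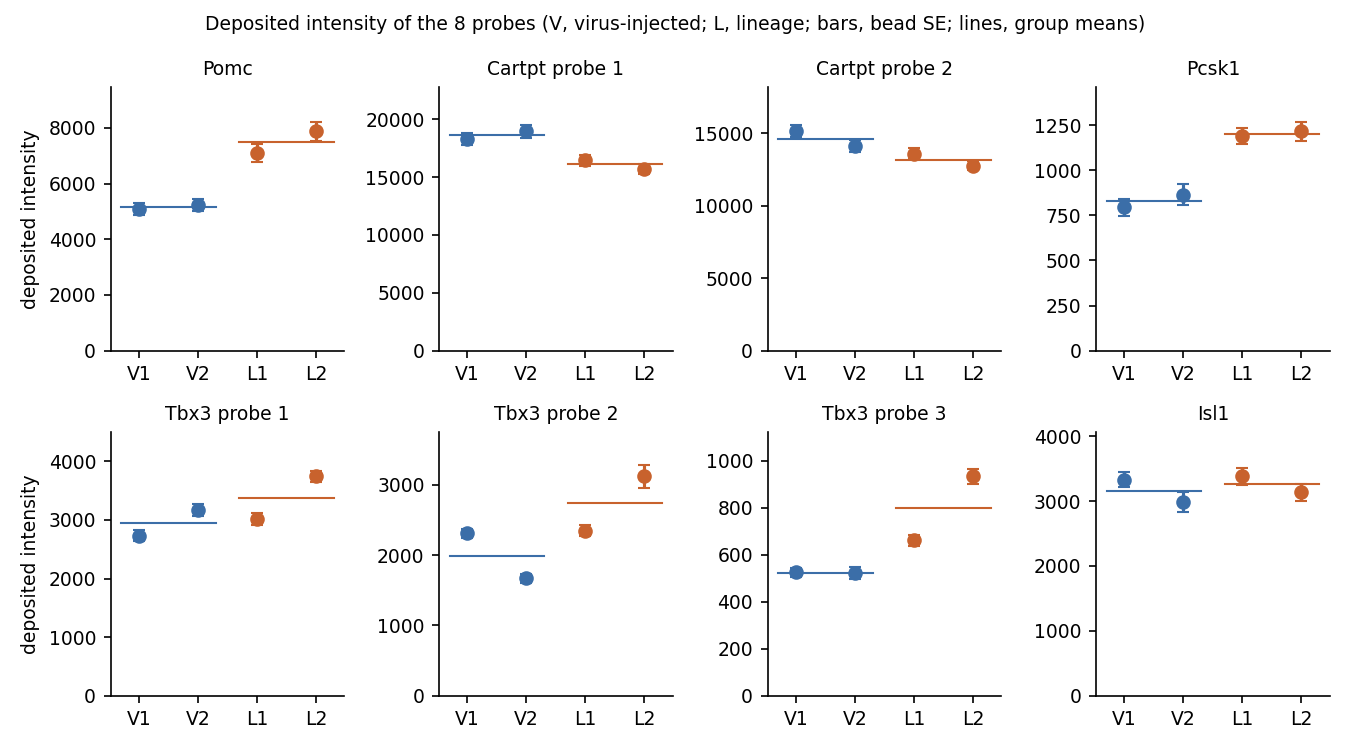
Deposited intensity (linear, y axis from 0) of each of the 8 probes on the virus-injected arrays (V1, V2, blue) and the lineage arrays (L1, L2, orange), with the standard error over beads as bars and group means as lines. Pomc lies at 5079 and 5219 on the virus-injected arrays and at 7108 and 7874 on the lineage arrays, while Isl1 stays between 2987 and 3382 throughout.

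Pomc (gene ID 18976, chromosome 12, 3954945 to 3960643 on GRCm38.p6) was read by probe ILMN_2745802. Its deposited intensity, with the standard error over beads, was 5079 ± 210 and 5219 ± 215 on the virus-injected arrays and 7108 ± 317 and 7874 ± 336 on the lineage arrays. The groups did not overlap. Pomc ranked 909th and 768th among 25697 probes on the virus-injected arrays, and 432nd and 351st on the lineage arrays, which places it in the top 3.54% and 2.99% and in the top 1.68% and 1.37% of the probes. A rank does not depend on how arrays are scaled to each other, and the background correction and normalization used here keep it by construction. It does depend on the probe as well as on the abundance of the transcript, so ranks of different genes are not compared as levels.

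On the background-corrected and normalized log2 scale, Pomc was at 12.17 ± 0.11 (SD, n = 2) on the virus-injected arrays and 12.83 ± 0.11 on the lineage arrays. The difference of 0.65 (SE 0.16, 95% interval 0.23 to 1.08) is a 1.57-fold ratio of means, with a limma adjusted p of 0.369. Over the 14 alternatives the adjusted p ranged from 0.00112 to 0.789. It passed in 1 of these, the fit in which the spread follows brightness (eBayes with a trend, limma adjusted p = 0.00112), where 232 of all probes (1.89%) passed, 100 of them (0.815%) with the higher mean in the lineage group. Of all tested probes, 464 (3.78%) had a difference as high as that of Pomc. In precipitated bulk RNA, fewer cells of a type and less RNA per cell cannot be told apart, here and for each gene that follows.

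Pcsk1 (gene ID 18548, chromosome 13, 75089420 to 75134861), the convertase that cuts the POMC precursor, was read by probe ILMN_2680894 at 794 ± 45.4 and 863 ± 58.0 (bead standard error) on the virus-injected arrays and 1189 ± 45.1 and 1215 ± 54.2 on the lineage arrays. The groups did not overlap. Pcsk1 ranked 8714th and 7622nd on the virus-injected arrays, close to the detection limit (detection p 0.00376 and 0.00125), and 5341st and 5508th on the lineage arrays. The normalized log2 values were 8.64 ± 0.26 (SD, n = 2) and 9.63 ± 0.05, a difference of 0.98 (SE 0.19, 95% interval 0.49 to 1.48) or 1.98-fold, with a limma adjusted p of 0.303. Over its alternatives the limma adjusted p ranged from 0.0629, with a trend, to 0.789. A difference as high was found for 108 of all tested probes (0.88%). The difference was 0.56 without background correction.

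Cartpt (gene ID 27220, chromosome 13, 99898483 to 99910179) had 2 probes, and neither ranked below 95th on any array. Its first probe, ILMN_2719755, ranked 49th and 35th on the virus-injected arrays and 45th and 52nd on the lineage arrays. The second probe, ILMN_3123063, ranked 88th, 90th, 87th and 95th in the same order. The groups therefore overlapped in rank on both probes. In deposited intensity the first probe read 18286 and 18956 on the virus-injected arrays and 16453 and 15731 on the lineage arrays. The second read 15127 and 14122, then 13573 and 12766. On that unscaled measure the lineage arrays lay below on both probes, with ratios of the group means of 0.864 and 0.901. The brightest probe of each array read between 64356 and 70819, so Cartpt was well inside the measured range.

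After normalization the separation of the Cartpt signals was gone. The first probe was at 14.08 ± 0.09 (SD, n = 2) and 14.02 ± 0.03, a difference of -0.06 (95% interval -0.46 to 0.33, limma adjusted p = 0.915). For the second probe the values were 13.73 ± 0.01 and 13.71 ± 0.03, a difference of -0.02 (-0.39 to 0.36, limma adjusted p = 0.982). The differences of the probes lay 0.05 apart. Pcsk1 and Cartpt, whose promoter windows both hold TGACGTCA, had differences of 0.98 and -0.06. A link between this element and the differences was not tested. The intervals of the Cartpt probes leave room for differences from -0.46 to 0.36, and they do not show that Cartpt was equal in the groups. Its direction is not settled, since the first probe turned to 0.0012 without virus-injected replicate 2 and the second to 0.0077 without lineage replicate 2.

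Because Pomc and Cartpt were measured on the same arrays, the difference of their log2 values removes any overall scale of an array. Pomc minus Cartpt (first probe) was -1.93 and -1.89 on the virus-injected arrays, and -1.29 and -1.09 on the lineage arrays, a shift of 0.72 in the mean. Pcsk1 minus Cartpt was -5.56 and -5.32, then -4.38 and -4.40, a shift of 1.05. Pomc minus Isl1 was 0.68 and 0.89, then 1.16 and 1.49, a shift of 0.55. None of these 3 overlapped between groups. Pcsk1 minus Pomc was -3.63 and -3.43, then -3.09 and -3.31, a shift of 0.33 that also did not overlap. These 4 shifts rest on 2 against 2 arrays, for which an exact permutation cannot give a two-sided p below 0.333, and they were not tested. They share members and follow from the differences of the single probes. Pomc and Pcsk1 did not overlap to begin with, so the shifts add no support. Of all tested single probes 21.9% lay above and 21.4% below without overlap, and the share over all pairs was not counted.

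**Figure D2:**
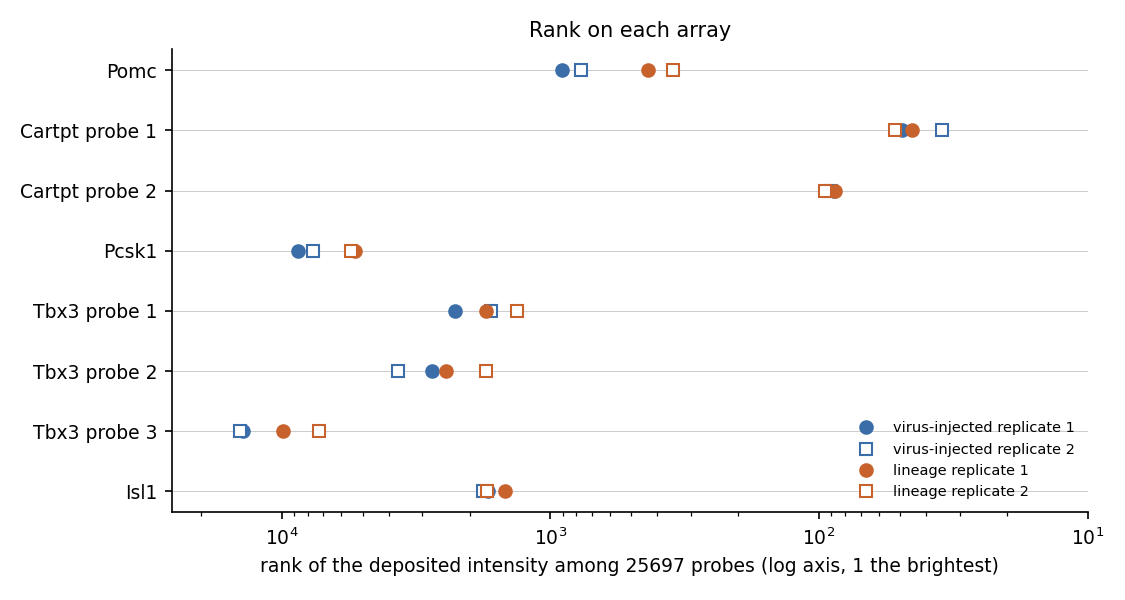
Rank of each probe's deposited intensity among the 25697 probes of an array (x axis, logarithmic, brighter to the right), with virus-injected arrays in blue and lineage arrays in orange. Both lineage arrays rank higher for Pomc, Pcsk1 and Tbx3 probes 2 and 3, and the groups overlap for Cartpt, Isl1 and Tbx3 probe 1.

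Isl1 (gene ID 16392, chromosome 13, 116298270 to 116309688), the homeodomain activator of Pomc, was detected with a detection p of 0 on every array. Probe ILMN_2727472 read 3332 ± 115 and 2987 ± 153 (bead standard error) on the virus-injected arrays and 3382 ± 127 and 3136 ± 134 on the lineage arrays. It ranked 1715th and 1790th, then 1480th and 1720th. The groups overlapped in intensity. The normalized values were 11.39 ± 0.04 (SD, n = 2) and 11.50 ± 0.12, a difference of 0.11 (SE 0.16, 95% interval -0.30 to 0.52, limma adjusted p = 0.847). With 1 array left out the difference ranged from 0.021 to 0.20.

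Tbx3 (gene ID 21386, chromosome 5, 119670534 to 119684724) was read by 3 probes that the annotation ties to the same RefSeq transcript and that differed in brightness. Their sequences were not used here, so the exons they read are not known. The brightest, ILMN_1247220 (probe 1), read 2734 and 3166 on the virus-injected arrays and 3011 and 3745 on the lineage arrays, and these overlapped. The next, ILMN_3139514 (probe 2), read 2308 and 1671, then 2349 and 3119. Its closest values between the groups, 2308 and 2349, lay 0.409 bead standard errors of their difference apart. The dimmest, ILMN_3061990 (probe 3), read 525 and 522, then 662 and 934. Probe 3 was not detected on either virus-injected array (detection p 0.105 and 0.122), whereas both lineage arrays detected it (0.00752 and 0.00125). Its ranks were 13918 and 14320 on the virus-injected arrays, in the dimmer part of the array, and 9889 and 7257 on the lineage arrays.

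The log2 differences of the Tbx3 probes were unequal. Probe 1 was at 11.27 ± 0.26 (SD, n = 2) and 11.55 ± 0.22, a difference of 0.28 (95% interval -0.28 to 0.84, limma adjusted p = 0.683). Without virus-injected replicate 2 the difference of probe 1 (0.47) was above that of probe 2 (0.39), so their order is not settled. Probe 2 was at 10.57 ± 0.32 and 11.18 ± 0.30, a difference of 0.61 (-0.04 to 1.27, limma adjusted p = 0.498). For probe 3 the measured means were 6.92 ± 0.06 and 8.51 ± 0.62. Since the virus-injected value of probe 3 is only a bound, its mean on the lineage arrays was at least 2.12-fold that on the virus-injected arrays (limma adjusted p = 0.311), where the bound takes the lowest detected signal of each virus-injected array and ranged from 1.56 to 2.88 with 1 array left out. Without background correction the fitted difference of probe 3 fell from 1.59 to 0.62. It could not be tested with either lineage array left out, as it was then detected on 1 array only.

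The probes of Tbx3 also disagreed inside a group. Virus-injected replicate 2 was the brighter array for probe 1 (11.45 against 11.08) and the dimmer for probe 2 (10.34 against 10.80). On the lineage arrays all 3 probes were brighter on replicate 2. With 1 array left out probe 1 ranged from 0.094 to 0.47 and probe 2 from 0.39 to 0.85.

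**Figure D3:**
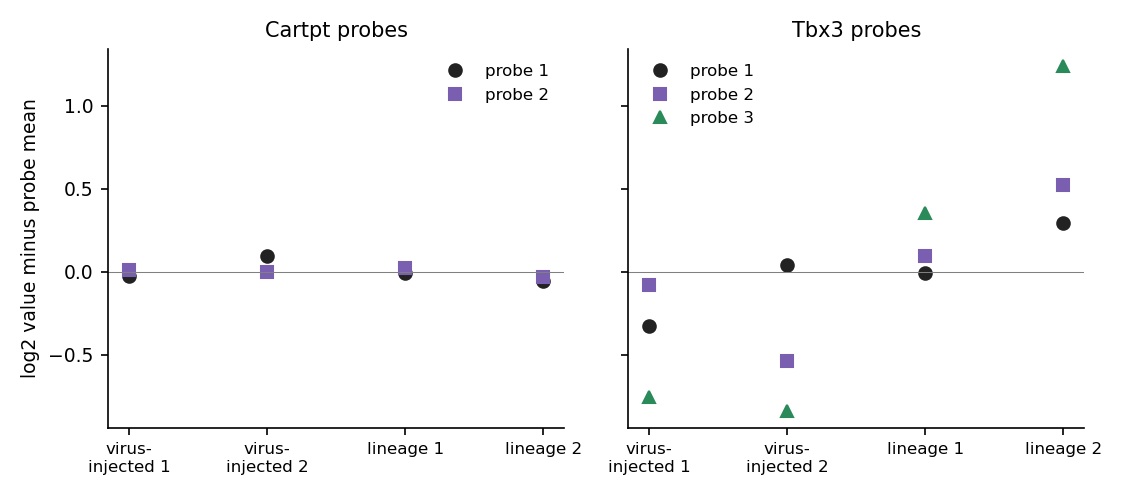
Log2 value of each probe minus that probe's mean over the 4 arrays (y axis), by array, for the 2 Cartpt probes (left) and the 3 Tbx3 probes (right), numbered from the brightest. The Cartpt probes stay near 0 on every array, whereas the Tbx3 probes spread apart, most of all probe 3.

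**Figure D4:**
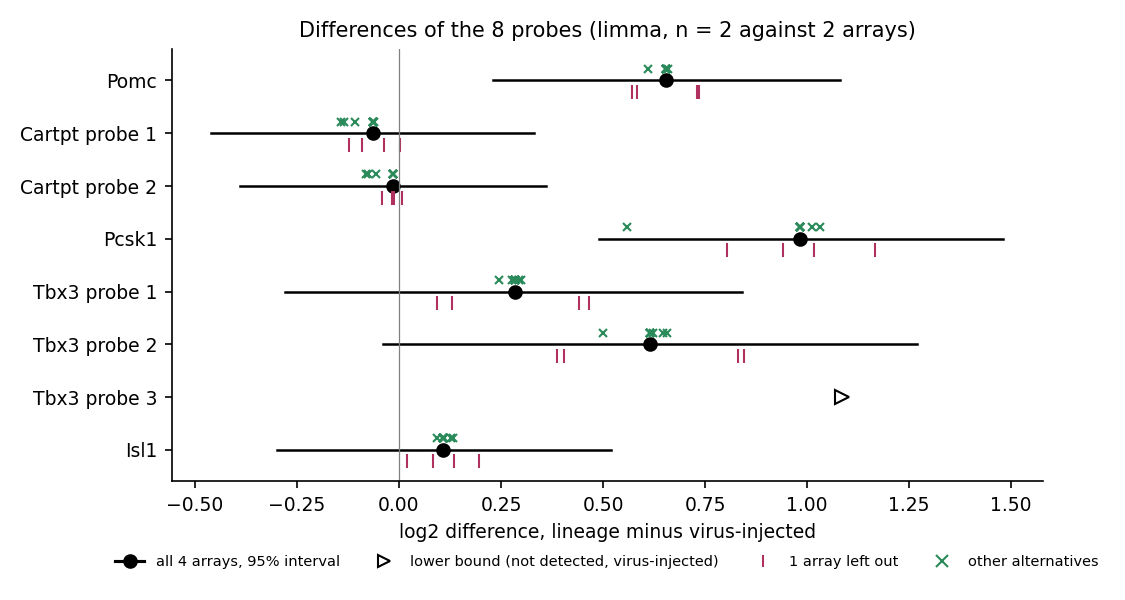
Log2 difference of the lineage minus the virus-injected group for the 8 probes (x axis), with the limma estimate and 95% interval in black, the values with 1 array left out as ticks and the other alternatives as crosses. The unadjusted intervals of Pomc (0.23 to 1.08) and Pcsk1 (0.49 to 1.48) lie above 0 and those of Cartpt, Isl1 and Tbx3 probes 1 and 2 include 0, while Tbx3 probe 3 has only a lower bound (2.12-fold, open triangle).

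Genes that act with the 5 were taken from lists set beside them, read through each gene's brightest probe. Over all 8360 genes tested, both lineage arrays lay above for 21.5% and below for 22.7%, and the median log2 difference was -0.0064. In the list of POMC processing and secretory granule genes, 0 of 15 tested genes passed the adjusted threshold, 10 lay above in both lineage arrays and 1 below, and the median was 0.15. Vgf, a granule peptide precursor, was at 11.34 and 11.42 on the virus-injected arrays and 12.46 and 11.80 on the lineage arrays, a difference of 0.75 (limma adjusted p = 0.453). Qpct, which forms pyroglutamate ends on peptides, was at 9.70 and 9.59, then 10.44 and 10.01 (0.58, limma adjusted p = 0.453). Chga, chromogranin A, and Ptprn, a granule membrane protein, differed by 0.50 and 0.34. The remaining 2 Chga probes differed by 0.38 and 0.48. Pcsk1 differed by 0.98 and Vgf by 0.75, an order that turned without background correction (0.56 against 0.67) and without lineage replicate 2 (1.02 against 1.09).

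Among 18 tested receptors and signalling genes of POMC neurons, 0 passed the adjusted threshold, 12 lay above in both lineage arrays and 1 below, and the median was 0.38. The ghrelin receptor Ghsr, better known from NPY neurons, was at 8.99 and 9.37, then 11.05 and 10.29, a difference of 1.49 (limma adjusted p = 0.322). The estrogen receptor Esr1 was at 10.70 and 10.65, then 11.34 and 11.05 (0.52, limma adjusted p = 0.437), although a further probe differed by 0.03. The NPY receptor Npy1r differed by 0.46 and the leptin receptor Lepr by 0.71. Lepr was at 7.63 and 8.15, then 8.85 and 8.35. Of the listed genes on the array, Htr2c and Abcc8 were detected on no array and Mc4r on 1.

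The transcription factors of POMC neuron development did not share a direction. Of 12 tested, 0 passed, 3 lay above and 5 below in both lineage arrays, and the median was 0.07. Dlx2 and Dlx1, homeobox genes of GABAergic progenitors, were detected on both virus-injected arrays and on no lineage array, and after background correction were lower there by at least 3.63-fold and 1.42-fold (limma adjusted p = 0.134 and 0.330). With 1 array left out these bounds were 3.18 to 4.15 and 1.11 to 1.81. The sizes depend on the background: the fitted log2 difference of Dlx2 was -3.15, but -1.38 without background correction and -5.36 with the authors' processed values, and that of Dlx1 was -1.36, -0.51 and -2.59. Dlx2 passed the threshold in 4 alternatives. With all 4 arrays kept, its limma adjusted p ranged from 0.00031 with a trend to 0.5 with an unmoderated linear model. Dlx1 and Dlx2 entered the fit through the virus-injected arrays only. Their p-values, these passes and their place among the 5 below are therefore no support for a difference. Etv1 was at 7.71 and 7.24, then 8.41 and 8.29, with 1 of the virus-injected arrays above background. Nhlh2 was at 11.47 and 11.78, then 11.27 and 11.01, a difference of -0.48. Isl1 and Tbx3 probe 1 lay between these, at 0.11 and 0.28. Of the listed factors on the array, Neurog3, Bsx, Rax, Hes1, Otp and Gsx1 were detected on no array.

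Several lists of markers of other cells also lay apart between the groups, although 0 of their genes passed the adjusted threshold in the fit over 12266 probes. Their part in the differences of Pomc, Pcsk1 and Tbx3 was not tested. Under alternatives Npy and Avp each passed in 3, Hdc and Mbp in 2 and Gja1 in 1. With a trend the limma adjusted p of these 5 was 2.88e-08, 2.01e-08, 3.33e-06, 0.00295 and 0.0224. Asb4, Pdyn, Nhlh2, Lhx3, Vim, Slc1a2, Mag and Aif1 passed in none. Of the 8 listed NPY and AgRP neuron genes, Agrp itself was not on the array and Otp was detected on no array. The 6 tested genes all lay above in both lineage arrays. Their summed intensity was 13686 and 12134 on the virus-injected arrays and 19001 and 18627 on the lineage arrays. Npy was at 9.47 ± 0.01 (SD, n = 2) and 12.07 ± 0.10, and Asb4 differed by 0.23. Of 6 kisspeptin neuron genes, 5 lay above and 1 below (Nhlh2), with sums of 18135 and 19022, then 21893 and 20078. Their median difference was 1.72. Pdyn, the brightest of them and most of each sum, differed by 0.22, Nr5a2 by 1.34 and Kiss1, detected on 1 of the virus-injected arrays, by 2.29 (limma adjusted p = 0.649, 0.348 and 0.295). Tac2 and Tacr3 were detected on the lineage arrays only and were at least 2.98-fold and 3.06-fold higher there (limma adjusted p = 0.177 for both), with a further Tacr3 probe at least 1.64-fold higher. Kiss1, Tac2, Tacr3 and Nr5a2 are named after their values were seen. Tac2 and Tacr3, like Corin of the NPY neuron list, entered the fit through the lineage arrays only. Their p-values and their place in these counts and in the median are therefore no support for a difference. Of 8 tested genes of neurons outside the arcuate nucleus, 6 lay below and 1 above, and the sum went from 16586 and 18281 to 5897 and 6426. Avp was at 12.11 and 12.91, then 8.48 and 8.08, and Hdc at 12.30 and 12.23, then 10.09 and 10.60. Cartpt is also made by neurons that produce melanin-concentrating hormone. Their marker Pmch, chosen after its values were seen, was at 9.78 and 7.93 on the virus-injected arrays, and on neither lineage array was it detected, so that it was at least 2.50-fold lower there (limma adjusted p = 0.396). This bound rests on virus-injected replicate 1: it was 1.32 without that array and 4.76 without virus-injected replicate 2. Pmch entered the fit through the virus-injected arrays only, so its p-value and its place among the 6 below are no support for a difference. A part of such neurons in the Cartpt values was not tested.

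The pituitary also expresses Pomc and lies next to the mediobasal hypothalamus. Of 11 pituitary genes on the array, 10 were detected on no array, among them the hormone genes Gh, Prl, Cga, Lhb, Fshb and Tshb and the factors Tbx19 and Pax7 of Pomc-expressing pituitary cells. The other, Lhx3, was at 8.10 and 8.28, then 8.01 and 8.60. Tanycytes express Tbx3 as well, and of 8 of their genes 5 were detected on no array, including Rax. Vim, the single tested gene of that list, was at 7.71 and 6.88, then 8.26 and 7.73. It was detected on 1 of the virus-injected arrays and lay above in both lineage arrays, by 7.73 against 7.71 at the closest. A part of tanycytes in the Tbx3 values was not tested. Astrocyte genes summed to 11794 and 10037, then 8231 and 8646, and 4 of the 5 tested lay below. Gja1 differed by -0.61 and Slc1a2 by -0.29. Of 5 oligodendrocyte genes, 4 lay below, with sums of 6558 and 6542, then 4953 and 4537. Mbp differed by -1.18 on its brightest probe and by -0.10 and -0.49 on further ones, and Mag by -0.28. The microglial gene Aif1 was at 9.17 and 8.88, then 8.12 and 8.80. On a further Aif1 probe, at 8.30 and 7.24, then 7.82 and 7.39, the groups overlapped. Of the other microglial genes on the array, C1qa, C1qb and P2ry12 were detected on no array and Cx3cr1 and Tmem119 on 1.

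**Figure D5:**
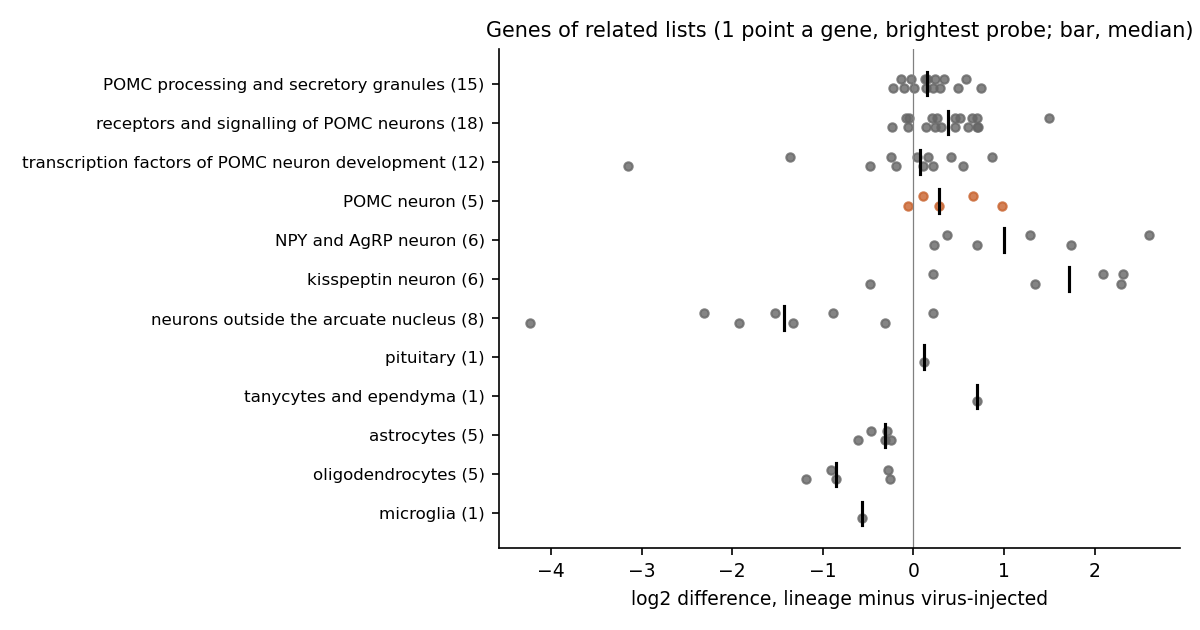
Log2 difference of the lineage minus the virus-injected group (x axis) for each tested gene of the related lists, with 1 point a gene, the list's median as a bar and the number of tested genes in brackets. The POMC neuron genes, in orange, lie between -0.06 and 0.98, inside the range from -4.23 (Avp) to 2.60 (Npy).

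Genes whose pattern over the 4 arrays was most like that of a member were found by the root mean square difference of log2 values after each probe was centred on its mean. Closest to Pomc were Sec14l1 at 0.0235, Pdk3 at 0.0279 and Dhx40 at 0.0305, among 9415 probes. Closest to Pcsk1 were Rasgrf2 at 0.0661, Vwc2l at 0.0702 and Rxfp1 at 0.0864. Few probes followed these patterns closely: 52 lay within 0.1 of Pomc and 8 within 0.1 of Pcsk1. The nearest to Tbx3 probe 1 were Rpp14, Usp9x and Rpain, at 0.0111 to 0.0186. Flat patterns had many neighbours, with 1641 probes within 0.1 of Cartpt and 1367 within 0.1 of Isl1. Ikbkg, Pafah1b2 and Sumo3 were nearest to Cartpt, and Grb2, Tspyl2 and Fbxl2 to Isl1. With 4 arrays such likeness describes these arrays only.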

How the data were processed

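Ribosome-bound RNA from 2 groups of 2 arrays was compared. Per the file headers, the deposited table holds a mean intensity per probe with a detection p-value, the number of beads and their standard error. The values come from GenomeStudio, per the submitters' processing notes; its version is not given in the sources used here. Array means of 1111 to 1192 differed, and no scaling was seen. Between 10982 and 12306 probes per array were detected (detection p under 0.05), each from a median of 38 to 39 beads; the number of arrays limits precision. A second deposited table of intensities, which the authors had background-subtracted and scaled as its values show, served as an alternative.

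The neqc function (limma 3.58.1 under R 4.3.3) corrected the background by normexp from the detection p-values, added an offset of 16, normalized by quantiles and took log2. Probes detected on at least 2 arrays (12266) entered 1 fit with lmFit and eBayes without covariates, two-sided, with Benjamini-Hochberg adjustment and a threshold of 0.05. The fit was also run on simulated data, but the outcome is not reported here and lends the fit no support. Lists use the brightest probe of a gene. The genes named are all member probes, the 4 genes of smallest p in each pathway list, the 2 brightest of each marker list and the 3 nearest patterns. In the annotation 23978 probes had 1 symbol, 0 had several and 1719 had none. Promoters come from RefSeq (GRCm38.p6). Members and lists were chosen with earlier results of these data known.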

Additional observations from a re-analysis of the deposited data

How the results depend on the processing

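The count of probes past the threshold was 0 and stayed at 0 with cyclic loess, no filter, detection on all 4 arrays, an unmoderated linear model, the replicate block, 1 probe per gene and each array left out (0 to 0). It was 232 with a trend, 45 without background correction, 5 with median scaling and 1 with the authors' processed values. The trend also put Pomc past the threshold at an unaltered 0.6541 (limma adjusted p = 0.00112). No other of the 5 genes' brightest probes passed in any of the 14 alternatives. With 1 array left out, Pomc ranged from 0.57 to 0.73, Pcsk1 from 0.80 to 1.17 and Cartpt from -0.12 to 0.0012, the last a reversal without virus-injected replicate 2. Other reversals were the second Cartpt probe (-0.042 to 0.0077) and Lhx3 (-0.18 to 0.41), both without lineage replicate 2, and Mag (-0.87 to 0.31) without virus-injected replicate 2; the cause was not tested. Of 364 values of the 27 further probes under alternatives, 344 kept direction and side, 17 passed only there and 3 reversed. The 17 belong to Dlx2, Avp, Npy, Hdc, Mbp, Ghsr, Gja1 and Vgf. The groups share replicate numbers but same-numbered arrays did not deviate together (r = -0.024 over 12266 probes, which are not independent). The replicate block left the Pomc difference at 0.65 (limma adjusted p = 0.477), and 0 probes passed.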
